A study of Neurospora crassa with 54 samples.

Results

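The comparison concerns a number that the labels of the RNA-seq libraries carry, called here tag-927 or tag-920. It sets the 4 libraries marked tag-927 against the 8 marked tag-920, with the strain as a block, in mycelium of the filamentous fungus Neurospora crassa. The 12 libraries are all the RNA-seq samples among the 54 samples of the series, and they were chosen by label alone. They come from 4 strains with 3 libraries each: ∆hH2Az;∆set-7, ∆hH2Az, ∆set-7 and the wild type. In each strain replicate 3 carries tag-927 and replicates 1 and 2 carry tag-920. The labels do not say what the number stands for, and since it goes with the replicate number in every strain, the tag and the replicate number cannot be told apart. The labels of each genotype carry a single strain code under both tags. All cultures were grown as mycelium for 12 hours at 30 °C in constant light, in Vogel's minimal medium (VMM in the labels) with 2% glucose. The libraries were stranded and made from polyadenylated RNA. No label says that the libraries of a strain came from separate cultures, so p-values measure the spread between these libraries, which may be technical. With 1 library marked tag-927 per strain, a shift within a single strain has no test.

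The gene hH2Az encodes H2A.Z, a variant of histone H2A that the SWR1 complex places in nucleosomes, often beside promoters. The gene set-7 encodes the methyltransferase that marks lysine 27 of histone H3, a mark found in Neurospora over silent genes and near chromosome ends. The fungus senses blue light through the White Collar complex, which switches on genes such as vvd and frq, and on glucose it both respires and ferments sugar to ethanol.

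The libraries held between 13581416 and 19720473 counts, and the tag-927 libraries (13738376 to 19266574) lay within the range of the tag-920 libraries. Levels are CPM, the counts of a gene scaled to library size with TMM, and 8372 of 10398 genes had enough reads to test. Reads of the deleted genes remained in all deletion strains, so the table does not show the deletions as absence; hH2Az (chromosome II, 1387651 to 1392823) also overlaps another gene. The residual hH2Az reads were 333 in the tag-927 library of ∆hH2Az;∆set-7, against 623 and 666 in its tag-920 libraries. They were 678 in the tag-927 library of ∆hH2Az, against 349 and 350 in its tag-920 libraries. The tag-927 library was thus low in one hH2Az-deleted strain and high in the other, each nearer to the reads of the other strain's tag-920 libraries. Every hH2Az-deleted library was below the 778 to 1542 reads of the hH2Az-kept libraries. For set-7, the strains labelled as deleted had 45 and 49 reads in their tag-927 libraries and 51 to 85 in their tag-920 libraries. The strains that keep set-7 had 136 and 260 reads in their tag-927 libraries and 99 to 174 in their tag-920 libraries. The mating-type gene matA-1 had no read in 11 of the libraries. The conidial markers summed to 1590, 789, 453 and 231 CPM in the tag-927 libraries of ∆hH2Az;∆set-7, ∆hH2Az, ∆set-7 and the wild type. The tag-920 libraries had 674 and 596, 1030 and 1060, 200 and 198, and 275 and 265 CPM in the same order, so the sum was higher in ∆hH2Az;∆set-7 and ∆set-7 and lower in ∆hH2Az and the wild type. Of the 10 conidial markers, con-13 was too low to test. The members did not move together. In ∆hH2Az, con-8 had 133 CPM in the tag-927 library, against 795 and 800 CPM, whereas cat-1 had 616 CPM, against 205 and 232 CPM. The sexual markers summed to 96, 73, 112 and 85 CPM in the tag-927 libraries in the same order of strains, against 111 and 98.7, 356 and 389, 184 and 161, and 192 and 155 CPM in the tag-920 libraries, so the sum was lower in all 4 strains. The sexual sum was mostly asd-1, with 91.5, 71.1, 99.1 and 79.1 CPM in the tag-927 libraries in the same order. Other sexual markers did not all fall: mfa-1 had 1.83 CPM in the tag-927 library of ∆set-7, against 1.26 and 0.956 CPM. The mycelial markers hex-1, chs-1, tef-1 and act summed to 9060 to 18000 CPM in the tag-927 libraries and 10400 to 20900 CPM in the tag-920 libraries. The part of these markers in the results below was not tested.

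Within each strain the tag-927 library differed from both tag-920 libraries more than these differed from each other. In ∆hH2Az;∆set-7, 1748 genes (20.9%) lay at least 2-fold from the mean of the tag-920 libraries, and in ∆hH2Az 1559 genes (18.6%) did. In ∆set-7 it was 914 genes (10.9%) and in the wild type 952 genes (11.4%). Between the 2 libraries marked tag-920, from 132 to 266 genes were 2-fold apart. The tag-927 library lay outside both tag-920 libraries for 7066 of 8372 genes in ∆hH2Az;∆set-7 and 7520 in ∆hH2Az. In ∆set-7 it was 6901 genes and in the wild type 6993, so a lack of overlap within a strain was the usual case. The shift was broader in the strains that lack hH2Az. Over the 8372 genes, the shifts of the wild type and ∆set-7 had a Pearson correlation of 0.245, and those of ∆hH2Az and ∆set-7 one of 0.266. The shifts of ∆hH2Az;∆set-7 and the wild type had a correlation of -0.35, and those of the 2 hH2Az-deleted strains one of -0.104, where Spearman's rho was 0.095, of the opposite sign. Genes are not independent replicates, and these values only describe the 4 libraries.

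The 2 hH2Az-deleted strains were next compared over genes chosen from the tag-920 libraries alone. In these, 122 genes were at least 8-fold apart between ∆hH2Az;∆set-7 and ∆hH2Az, with at least 5 CPM in the higher strain. Of the 34 genes that were higher in ∆hH2Az;∆set-7, 28 were higher there in the tag-927 libraries too, and 17 of them again by at least 8-fold. Of the 34, 24 lay within 200 kb of a chromosome end, against 7.43% of all genes tested, and 26 were higher in every ∆set-7 library than in every wild-type library. NCU07150 (chromosome V) is one of them, with 120 CPM in the tag-927 library of ∆hH2Az;∆set-7 and 234 and 183 CPM in its tag-920 libraries. It had 0.72 CPM in the tag-927 library of ∆hH2Az and 0 and 0.306 CPM in its tag-920 libraries. Of the 88 genes that were lower in ∆hH2Az;∆set-7 in the tag-920 libraries, 81 had the opposite sign in the tag-927 libraries, and 23 were then at least 8-fold higher in ∆hH2Az;∆set-7. Of these 88, 10 lay within 200 kb of a chromosome end, and 16 were higher in every ∆set-7 library than in every wild-type library. The shares of all genes tested with that order of libraries, or with opposite signs between the tags, were not counted. NCU05788 (chromosome VII) had 251 CPM in the tag-927 library of ∆hH2Az;∆set-7, against 2.55 and 1.85 CPM in its tag-920 libraries. In ∆hH2Az it had 1.77 CPM in the tag-927 library, against 370 and 213 CPM in the tag-920 libraries. Of the 88, 6 have a symbol: ecd-2, phy-2, gh3-4, gh7-4 and ccg-9 changed sign, and neg-1 did not, with log2 differences of -0.44 in the tag-927 and -3.33 in the tag-920 libraries. ccg-9 had 320 CPM in the tag-927 library of ∆hH2Az;∆set-7, against 9.52 and 8.56 CPM in its tag-920 libraries. In ∆hH2Az it had 45.7 CPM in the tag-927 library, against 145 and 164 CPM in the tag-920 libraries. An exception was NCU09968 (chromosome VI), with 0.139 CPM in the tag-927 library of ∆hH2Az;∆set-7 and 23.7 CPM in that of ∆hH2Az, on the same side as in the tag-920 libraries. The examples were chosen after their values were seen. Of the 122 genes, 72 in the tag-927 library of ∆hH2Az;∆set-7 and 80 in that of ∆hH2Az were nearer the other strain's tag-920 mean than their own. Over all genes tested, the tag-927 library of ∆hH2Az;∆set-7 had a correlation of 0.935 with its own tag-920 mean and 0.941 with that of ∆hH2Az. The tag-927 library of ∆hH2Az had 0.942 with its own and 0.955 with that of ∆hH2Az;∆set-7. In ∆set-7 it was 0.969 with its own and 0.97 with the wild type, and the wild type was nearest its own (0.974). The cause was not tested. Because the tag-927 libraries of the hH2Az-deleted strains stand apart in this way, counts of calls are also given without each of them.

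**Figure D1:**
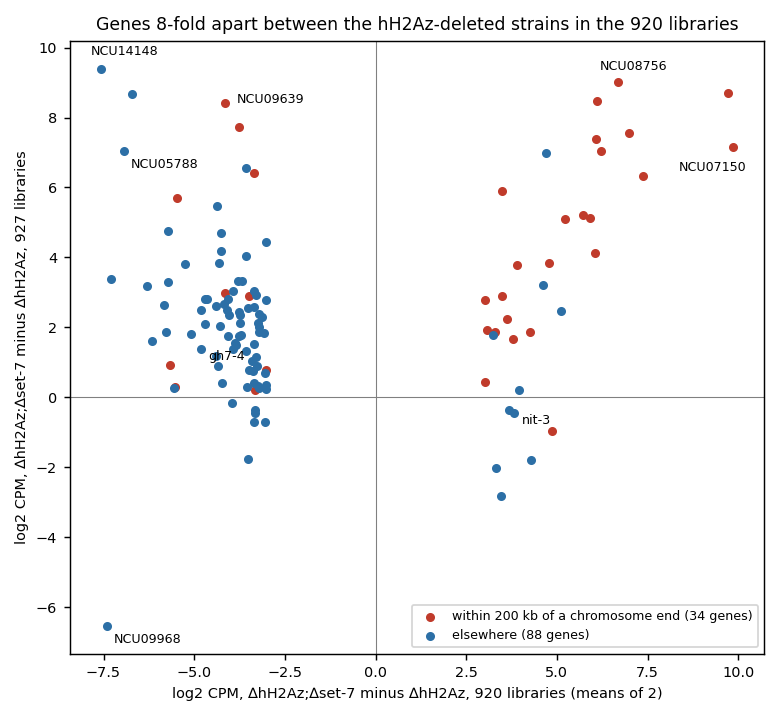
Each point is 1 of the 122 genes that were at least 8-fold apart between ∆hH2Az;∆set-7 and ∆hH2Az in the tag-920 libraries (x axis, log2 CPM difference of the means of 2 libraries), with the same difference between their tag-927 libraries on the y axis. The right-hand group, mostly within 200 kb of a chromosome end, stayed above 0 for 28 of 34 genes, while 81 of the 88 genes on the left lay above 0, opposite to their sign in the tag-920 libraries.

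A common shift over the 4 strains passed the test for 61 of 8372 genes: 33 were higher (0.394% of the genes tested) and 28 lower (0.334%) in the tag-927 libraries. All 33 had the tag-927 library above both tag-920 libraries in all 4 strains, and all 28 had it below both. Over all genes, 397 (4.74%) were above both in all 4 strains and 383 (4.57%) below both. The 61 were chosen by a test of this shift in these same libraries, so their order of libraries describes them and tests nothing. The rises included NCU05404, the neighbours NCU06413 and NCU06412, tah-3, qip and gh31-1. The falls included NCU00399, ccg-13, NCU07095 and the neighbours NCU06327 and NCU06328. At an unadjusted p under 0.05, 1824 genes shifted. The number of calls depended on single libraries: it was 891 without the tag-927 library of ∆hH2Az;∆set-7, 42 without that of ∆hH2Az, 1 without that of ∆set-7 and 1165 without that of the wild type. It was 3 to 66 without single tag-920 libraries. Of 23 genes with this call that were followed singly, 1 kept it without any single library. The median gene lost it without 9 of the 12 libraries.

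NCU06413 (chromosome III, 1314200 to 1317300) and NCU06412 (chromosome III, 1312003 to 1313453) lie on opposite strands, 746 bp apart, and both rose. NCU06413 had 40.2, 74.6, 76.8 and 104 CPM in the tag-927 libraries of ∆hH2Az;∆set-7, ∆hH2Az, ∆set-7 and the wild type. In the tag-920 libraries it had 12.9 and 16.2 CPM in ∆hH2Az;∆set-7, 28.8 and 31.6 CPM in ∆hH2Az, 32.9 and 26.5 CPM in ∆set-7, and 31.6 and 42.7 CPM in the wild type. The tag-927 library was above both tag-920 libraries in every strain, as for 4.74% of all genes tested. The rise was alike in all 4: the fitted log2 difference was 1.41 (SE 0.124, edgeR adjusted p = 0.00232). It was the one common shift among the genes described here that kept its call without any single library. NCU06412 had 5.14, 14.9, 10.2 and 20.9 CPM in the tag-927 libraries in the same order of strains, against 1.85 to 6.55 CPM in the tag-920 libraries (log2 fold change 1.38, SE 0.173, edgeR adjusted p = 0.0151).

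gh31-1 encodes a glycoside hydrolase of family 31. It had 11.5, 12.4, 7.58 and 4.56 CPM in the tag-927 libraries of ∆hH2Az;∆set-7, ∆hH2Az, ∆set-7 and the wild type, against 2.19 to 5.92 CPM in the tag-920 libraries. Its log2 fold change was 1.34 (SE 0.175, edgeR adjusted p = 0.0151). qip, the exonuclease that works with the Argonaute protein QDE-2 in RNA silencing, had 19.3, 33.7, 20.2 and 16.5 CPM in the tag-927 libraries, against 8.35 to 15.4 CPM in the tag-920 libraries. The wild type moved least, with 16.5 CPM against 15.4 and 11.8 CPM, and the log2 fold change was 1.07 (SE 0.207, edgeR adjusted p = 0.0482). tah-3 had 396, 330, 177 and 100 CPM in the tag-927 libraries, against 35 to 182 CPM in the tag-920 libraries (log2 fold change 1.31, SE 0.24, edgeR adjusted p = 0.0418). NCU05404 rose most, by 1.67 on the log2 scale, and unevenly. Its tag-927 level was 733 CPM in ∆set-7, against 96.1 and 121 CPM in the tag-920 libraries, but 607 CPM in ∆hH2Az;∆set-7, against 300 and 467 CPM. The call was lost without 6 of the 12 libraries for gh31-1, 10 for qip, 9 for tah-3 and 9 for NCU05404. NCU07769, NCU04193, NCU09760 and NCU06969 rose by 1.00 to 1.30. Further rises, all under 2-fold, included stk-12, stk-34 and prk-2, which encode protein kinases, and nst-4, which encodes a sirtuin-type deacetylase; these 4 were chosen after their values were seen.

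ccg-13 is one of the clock-controlled genes, whose transcripts cycle with the circadian clock. It had 459, 128, 228 and 129 CPM in the tag-927 libraries of ∆hH2Az;∆set-7, ∆hH2Az, ∆set-7 and the wild type. The tag-920 libraries had 977 and 848, 957 and 1410, 2100 and 1410, and 1850 and 753 CPM in the same order of strains. The fall was 2.54 on the log2 scale over all strains (log2 fold change -2.54, SE 0.442, edgeR adjusted p = 0.0418), and ∆hH2Az;∆set-7 fell least. NCU00399 behaved alike, with 67 to 205 CPM in the tag-927 libraries and 316 to 1240 CPM in the tag-920 libraries (log2 fold change -2.55, SE 0.418, edgeR adjusted p = 0.0397). ccg-13 and NCU00399 each lost the call without 9 of the 12 libraries. NCU07095, 184.6 kb from an end of chromosome VI, was at a lower level, with 1.67, 0.672, 4.43 and 0.693 CPM in the tag-927 libraries and 3.49 to 23.5 CPM in the tag-920 libraries. Its fitted log2 difference, -2.41 (SE 0.274, edgeR adjusted p = 0.00907), lost its call without 1 of the 12 libraries. NCU06327 and NCU06328 lie on opposite strands of chromosome IV, 2956 bp apart, and fell by 1.63 and 1.38. The common call was lost without 5 of the 12 libraries for NCU06327 and 10 for NCU06328. NCU06328 fell by 1.97 where hH2Az is deleted and by 0.73 where it is kept, which did not pass. That difference passed (edgeR adjusted p = 0.0484), a call lost without 11 of the 12 libraries. NCU06327 had 211, 295, 78.9 and 125 CPM in the tag-927 libraries, against 211 to 1570 CPM in the tag-920 libraries. NCU09182, NCU08720 and NCU09798 fell by 1.46, 1.45 and 1.35, and lost the call without 1, 7 and 6 of the 12 libraries. The genes cmd, which encodes calmodulin, ubi::crp-6, a ubiquitin fused to a ribosomal protein, and gst-3, a glutathione S-transferase, also fell (chosen after their values were seen). Their log2 fold changes were -0.84, -0.86 and -0.79. NCU06413, gh31-1, qip, NCU00399, NCU10031, NCU14015, ubi::crp-6 and gst-3 overlap another gene, and since the counting used no strand option, reads of overlapping genes cannot be told apart.

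**Figure D2:**
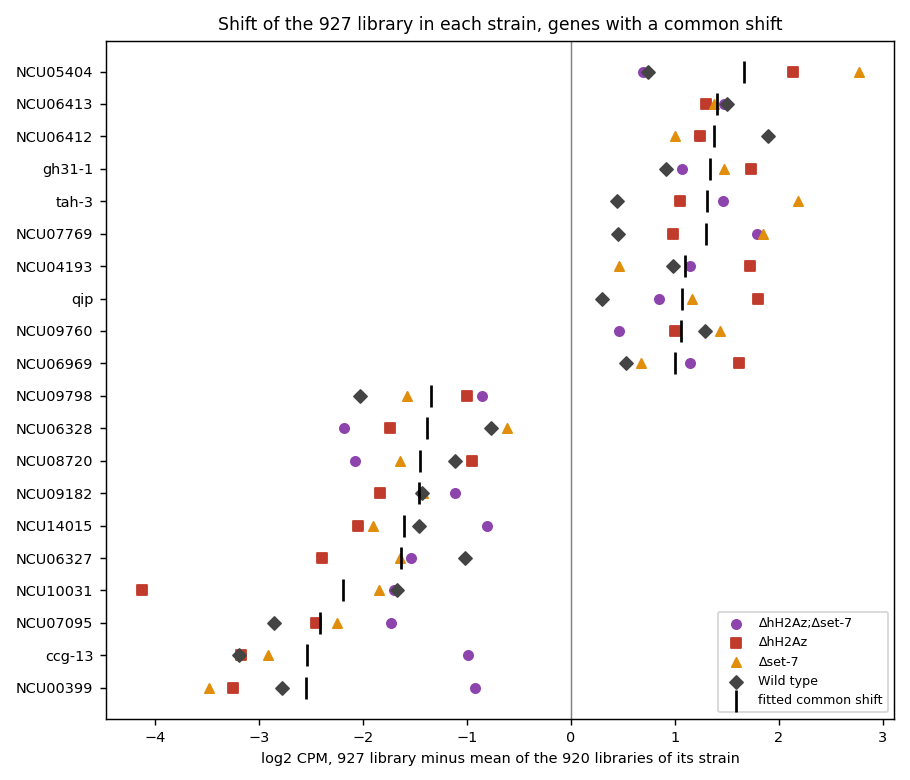
Each row is a gene with a common shift, and each symbol is the log2 CPM of the tag-927 library of a strain minus the mean of its tag-920 libraries; the vertical tick is the fitted log2 fold change over all strains. NCU06413 moved alike in all 4 strains, whereas ccg-13 and NCU00399 moved least in ∆hH2Az;∆set-7 and NCU10031 moved most in ∆hH2Az.

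Among the gene groups examined, few members shifted in common. Of 64 amino acid biosynthesis genes, 1 fell and none rose: leu-1, which encodes an enzyme of leucine synthesis, with 224 to 392 CPM in the tag-927 libraries and 318 to 641 CPM in the tag-920 libraries (log2 fold change -0.59, SE 0.107, edgeR adjusted p = 0.0418). leu-1 lost this call without 10 of the 12 libraries. Of 28 chitin and glucan synthesis and wall protein genes, acw-5 fell, a call lost without 9 of the 12 libraries. Of 29 light and clock genes, ccg-13 fell. Of 73 plant cell wall hydrolase genes, gh31-1 rose. No gene passed among the 7 cytosolic ribosomal protein genes, although their median log2 fold change was -0.51, against 0.03 over all genes tested. Nor did any gene pass among 9 histone genes (median -0.23), 19 genes of glycolysis, fermentation and gluconeogenesis (median 0.02) and 56 genes of the respiratory chain (median -0.08). Of 622 genes within 200 kb of a chromosome end, 4 rose and 3 fell, 1.13% in all. Over all genes tested, 0.394% rose and 0.334% fell, the shares against which these list counts stand.

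The tag effect was also fitted separately where hH2Az is deleted and where it is kept. In that fit the average of both effects passed for 563 genes, against 61 in the fit with a single common effect, so counts from these fits cannot be ranked against each other. In the fit with a separate effect for each status, 548 genes rose (6.55%) and 231 fell (2.76%) in the tag-927 libraries where hH2Az is deleted. Where it is kept, 101 rose (1.21%) and 50 fell (0.597%). The difference between these effects, deleted minus kept, passed the test for 360 genes, 220 higher (2.63%) and 140 lower (1.67%). For 333 of the 360 the fitted effects had opposite signs: 199 were up where hH2Az is deleted and down where it is kept, and 134 the reverse. For 230 genes the effect passed only where hH2Az is deleted and the difference passed as well, with 182 higher and 48 lower. For 37 genes the effect passed only where hH2Az is kept and the difference passed, with 32 higher and 5 lower. Genes that passed in both numbered 31: 16 in the same direction, which is 2.05% of the calls where hH2Az is deleted and 10.6% of those where it is kept, and 15 in opposite directions. The number of calls depended on single libraries. For the difference by hH2Az status it was 1872 without the tag-927 library of ∆hH2Az, 986 without that of ∆hH2Az;∆set-7, 838 without that of ∆set-7 and 5 without that of the wild type, and between 4 and 460 without single tag-920 libraries. Where hH2Az is kept, it was 0 to 3 without any 1 wild-type or ∆set-7 library, and 1164 and 1165 without the tag-927 library of ∆hH2Az or of ∆hH2Az;∆set-7. Where hH2Az is deleted, it was 1736 and 1563 without these same libraries, and 242 to 401 without any 1 of the tag-920 libraries of the hH2Az-deleted strains. Among genes followed singly, 21 passed where hH2Az is kept, and each lost that call without 6 to 10 of the 12 libraries. Where hH2Az is deleted, 26 of 59 kept the call without any single library, and by hH2Az status 1 of 27 did.

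**Figure D3:**
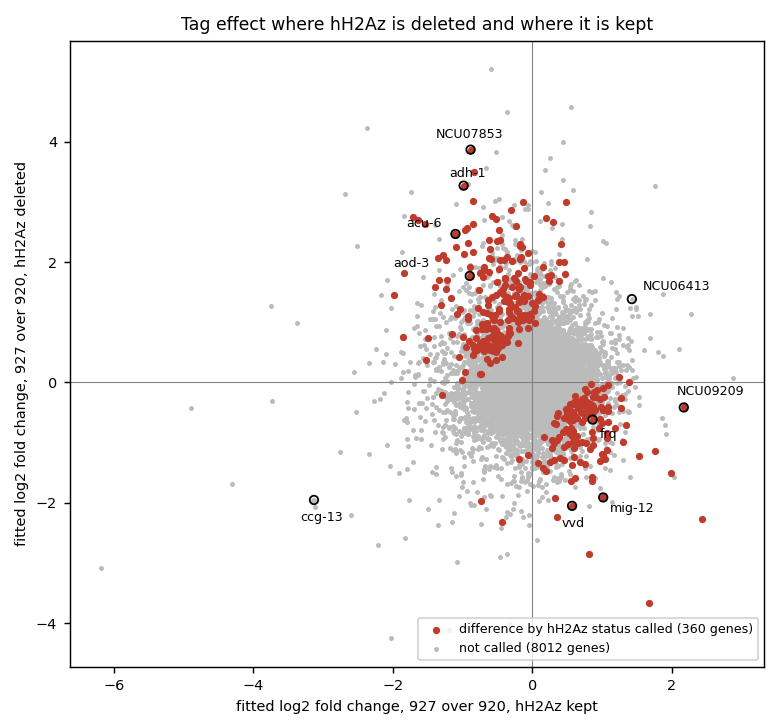
Each point is 1 of 8372 genes, with the fitted log2 fold change of tag-927 over tag-920 where hH2Az is kept on the x axis and where it is deleted on the y axis; red points are the 360 genes whose difference passed the test. Most red points lie in the upper left (adh-1, acu-6, NCU07853) and lower right (vvd, frq, mig-12), where the effects have opposite signs, and the common shifts NCU06413 and ccg-13 lie near the other diagonal.

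A few light-responsive genes were lower in the tag-927 libraries where hH2Az is deleted and higher where it is kept. Of 29 light and clock genes, 5 differed by hH2Az status, all downward, against 1.67% of all genes tested: vvd, al-2, frq, phr and bli-3. Where hH2Az is deleted, vvd, al-2, phr and bli-4 fell and ccg-8 rose, against 2.76% and 6.55% of all genes tested. Where it is kept, frq rose and ccg-13, ccg-14 and cmt fell, against 1.21% and 0.597% of all genes tested. Each of these calls where hH2Az is kept was lost without 9 of the 12 libraries. For 6 of the 29 genes the tag-927 library was below both tag-920 libraries in both hH2Az-deleted strains and above both in both hH2Az-kept strains (the median difference over the list was -0.11, against 0.03 over all genes tested), a pattern that 323 of all 8372 genes showed (3.86%). The opposite pattern held for 1 of the 29 and for 297 of all genes (3.55%). The 5 calls fell to 1 to 3 without 1 or another of 7 libraries, and ranged up to 12 without the tag-927 library of ∆hH2Az.

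vvd (chromosome VI, 2268533 to 2271812) encodes a blue-light photoreceptor that damps the light response and is itself light-induced. It had 80.2 and 81.2 CPM in the tag-927 libraries of ∆hH2Az;∆set-7 and ∆hH2Az, against 434 and 396 CPM and 315 and 232 CPM in their tag-920 libraries. In ∆set-7 it had 398 CPM in the tag-927 library, against 243 and 282 CPM, and in the wild type 331 CPM, against 212 and 245 CPM. The groups did not overlap in any strain, and the direction turned with hH2Az, as for 3.86% of all genes tested. The log2 fold change was -2.05 where hH2Az is deleted (SE 0.21, edgeR adjusted p = 0.00215) and 0.57 where it is kept, which did not pass (edgeR adjusted p = 0.115). The difference was -2.62 (SE 0.273, edgeR adjusted p = 0.00765), and it kept its call without any single library, between -2.94 and -2.32. frq, the gene of the central clock protein, had 157 and 164 CPM in the tag-927 libraries of ∆hH2Az;∆set-7 and ∆hH2Az, against 261 and 320 CPM and 229 and 192 CPM in their tag-920 libraries. In ∆set-7 and the wild type it had 152 and 183 CPM in the tag-927 libraries, against 73.1 and 91 CPM and 106 and 99.4 CPM. All 4 of the tag-927 libraries thus lay between 152 and 183 CPM, while the tag-920 libraries split by hH2Az status. Its difference by hH2Az status was -1.48 (SE 0.249, edgeR adjusted p = 0.02), lost without 5 of the 12 libraries.

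al-2, which encodes phytoene synthase of the carotenoid pathway, had 215 and 164 CPM in the tag-927 libraries of ∆hH2Az;∆set-7 and ∆hH2Az, against 490 and 337 CPM and 669 and 503 CPM in their tag-920 libraries. In ∆set-7 and the wild type it had 462 and 434 CPM in the tag-927 libraries, against 256 and 245 CPM and 379 and 372 CPM. The difference by hH2Az status was -1.93 (SE 0.366, edgeR adjusted p = 0.0261). phr, the photolyase gene, had 40.6 and 26.6 CPM in the tag-927 libraries of the hH2Az-deleted strains and 27.2 and 36.3 CPM in those of the hH2Az-kept strains. The tag-920 libraries had 52.9 to 78.2 CPM and 23.5 to 26.5 CPM, and the difference was -1.32 (SE 0.277, edgeR adjusted p = 0.0364). bli-3, a blue-light-induced gene that overlaps another gene, differed by -1.12 (SE 0.27, edgeR adjusted p = 0.0496). With single libraries left out, the call by hH2Az status was lost in 6 of 12 cases for al-2 (-2.39 to -1.5), 7 for phr (-1.58 to -1.08) and 9 for bli-3 (-1.34 to -0.93). cry, a cryptochrome gene that overlaps another gene, had 183 and 78.1 CPM in the tag-927 libraries of ∆hH2Az;∆set-7 and ∆hH2Az, against 263 and 246 CPM and 368 and 314 CPM, and did not pass the test. wc-1, which encodes a subunit of the White Collar complex, did not follow the pattern: it had 31.5, 37.8, 36.5 and 23.6 CPM in the tag-927 libraries, above its strain's tag-920 libraries in each case, and did not pass either. These genes, other than vvd and ccg-13, were named after their values were seen or as members of the list that passed a test.

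Of 8 heat shock and chaperone genes, 4 had the tag-927 library below both tag-920 libraries in both hH2Az-deleted strains and above both in both hH2Az-kept strains, against 3.86% of all genes. Only hsp80, which encodes an HSP90-type chaperone, passed the test by hH2Az status, against 1.67% of all genes tested that differed downward. It had 1050 and 746 CPM in the tag-927 libraries of ∆hH2Az;∆set-7 and ∆hH2Az, against 1920 and 1890 CPM and 1640 and 1450 CPM in their tag-920 libraries. Where hH2Az is kept, ∆set-7 and the wild type had 783 and 1070 CPM in the tag-927 libraries, against 547 and 778 CPM and 475 and 622 CPM. The difference was -1.57 (SE 0.313, edgeR adjusted p = 0.0301), lost without 8 of the 12 libraries. The median difference over the 8 genes was -0.78, against 0.03 over all genes tested.

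**Figure D4:**
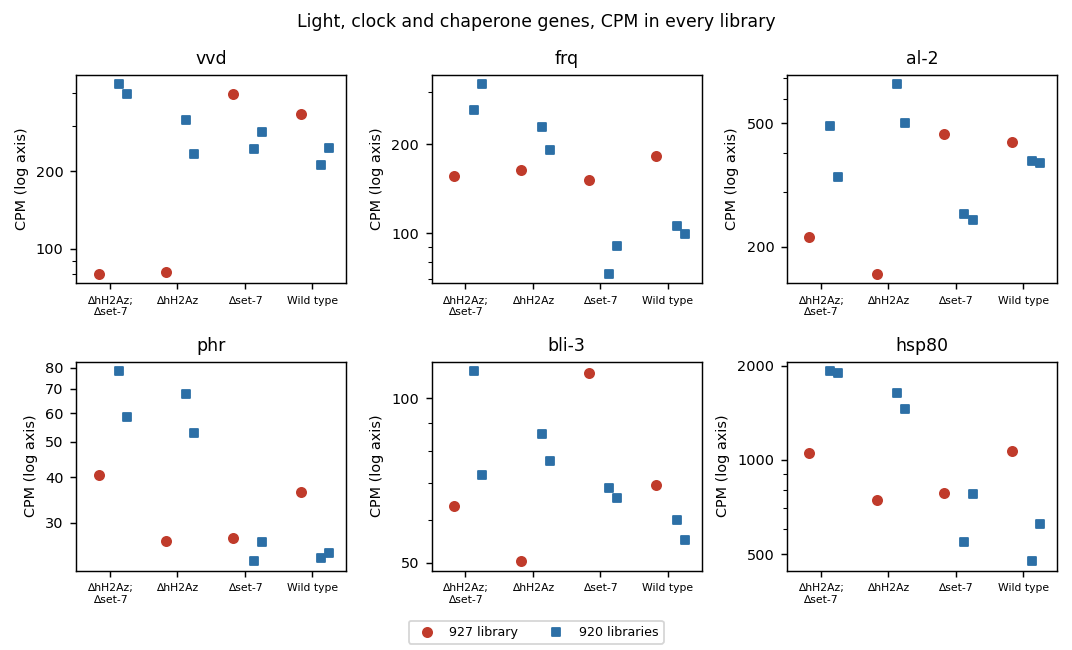
CPM on log axes in every library for light, clock and chaperone genes, with the tag-927 library (red circle) left of the tag-920 libraries (blue squares) in each strain. vvd, frq, al-2 and hsp80 had the tag-927 library below the tag-920 libraries in both strains without hH2Az and above them in ∆set-7 and the wild type.

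Of 19 genes of glycolysis, fermentation and gluconeogenesis, 4 rose in the tag-927 libraries where hH2Az is deleted (adh-1, acu-6, emp-3 and emp-1), against 6.55% of all genes, and none rose where it is kept. The call of emp-1 was lost without 10 of the 12 libraries. The difference by hH2Az status was upward for 4 (adh-1, acu-6, emp-3 and emp-6), against 2.63% of all genes, and the other 15 did not pass. The median difference over the 19 genes was 0.68, against 0.03 over all genes tested, and the calls ranged from 0 to 8 when single libraries were left out. For 4 of the 19 the tag-927 library was above both tag-920 libraries in both hH2Az-deleted strains and below both in both hH2Az-kept strains, against 3.55% of all genes.

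adh-1 (chromosome II, 2539541 to 2541938, overlapping another gene) encodes alcohol dehydrogenase, which makes ethanol. It had 5950 and 4070 CPM in the tag-927 libraries of ∆hH2Az;∆set-7 and ∆hH2Az, against 318 and 461 CPM and 363 and 1090 CPM in their tag-920 libraries. In ∆set-7 it had 3570 CPM in the tag-927 library, against 5340 and 3610 CPM, and in the wild type 1880 CPM, against 6940 and 5860 CPM. The hH2Az-deleted strains were thus above ∆set-7 and the wild type in the tag-927 libraries and below them in the tag-920 libraries. Its log2 fold change was 3.27 where hH2Az is deleted (SE 0.492, edgeR adjusted p = 0.00665), a call kept without any single library, and -0.99 where it is kept, which did not pass. The difference of 4.26 (SE 0.75, edgeR adjusted p = 0.0222) lost its call without 6 of the 12 libraries. acu-6, which encodes phosphoenolpyruvate carboxykinase of gluconeogenesis, had 748 and 902 CPM in the tag-927 libraries of ∆hH2Az;∆set-7 and ∆hH2Az, against 111 and 175 CPM and 141 and 167 CPM in their tag-920 libraries. In ∆set-7 it had 48.5 CPM in the tag-927 library, against 55.4 and 34.8 CPM, so the groups overlapped there. In the wild type it had 12 CPM, against 80.2 and 92.8 CPM. The difference was 3.57 (SE 0.782, edgeR adjusted p = 0.0403), and it was lost without 8 of the 12 libraries.

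emp-3 and emp-6, both named for the glycolytic pathway, differed by 1.53 and 1.59. emp-6 had 4500 and 2860 CPM in the tag-927 libraries of the hH2Az-deleted strains and 2950 and 2450 CPM in those of the hH2Az-kept strains. In the tag-920 libraries it had 1800 to 2590 CPM where hH2Az is deleted and 4090 to 6180 CPM where it is kept, so the tag-927 libraries lay closer together than the tag-920 libraries. inv, the invertase gene, which overlaps another gene, had 4.45 and 1.77 CPM in the tag-927 libraries of ∆hH2Az;∆set-7 and ∆hH2Az, against 0.239 to 1.32 CPM in their tag-920 libraries, and 21.4 and 12.1 CPM in those of ∆set-7 and the wild type, against 18.5 to 23.7 CPM. Its difference was 2.46 (SE 0.379, edgeR adjusted p = 0.0161). inv belongs to the list of 18 carbon use and sugar uptake genes, whose other members did not differ by hH2Az status. The median difference over that list was 0, and 9 of the 18 were fitted above 0. Where hH2Az is deleted, 2 of the 18 rose, against 6.55% of all genes tested. aod-3, which encodes an alternative oxidase, had 79.3 and 122 CPM in the tag-927 libraries of ∆hH2Az;∆set-7 and ∆hH2Az, against 26.8 to 34.4 CPM in their tag-920 libraries. In ∆set-7 and the wild type it had 6.42 and 0.693 CPM in the tag-927 libraries, against 2.31 to 8.66 CPM in their tag-920 libraries, and the difference was 2.67 (SE 0.494, edgeR adjusted p = 0.0249). It was the 1 of 56 respiratory chain genes that differed by hH2Az status, while 2.63% of all genes tested differed upward. Single libraries left out ended the call in 6 of 12 cases for aod-3 (2.06 to 3.77) and 3 for inv (2.19 to 2.71). They ended it in 8 cases for emp-3 (1.02 to 2.07) and 6 for emp-6 (1.32 to 1.84). Over all 360 genes whose difference passed, the hH2Az-deleted minus hH2Az-kept difference had opposite signs in the tag-927 and the tag-920 libraries for 244. Among all genes tested this held for 2248, or 26.9%. The 360 were chosen by that very difference, so this count describes them and tests nothing.

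**Figure D5:**
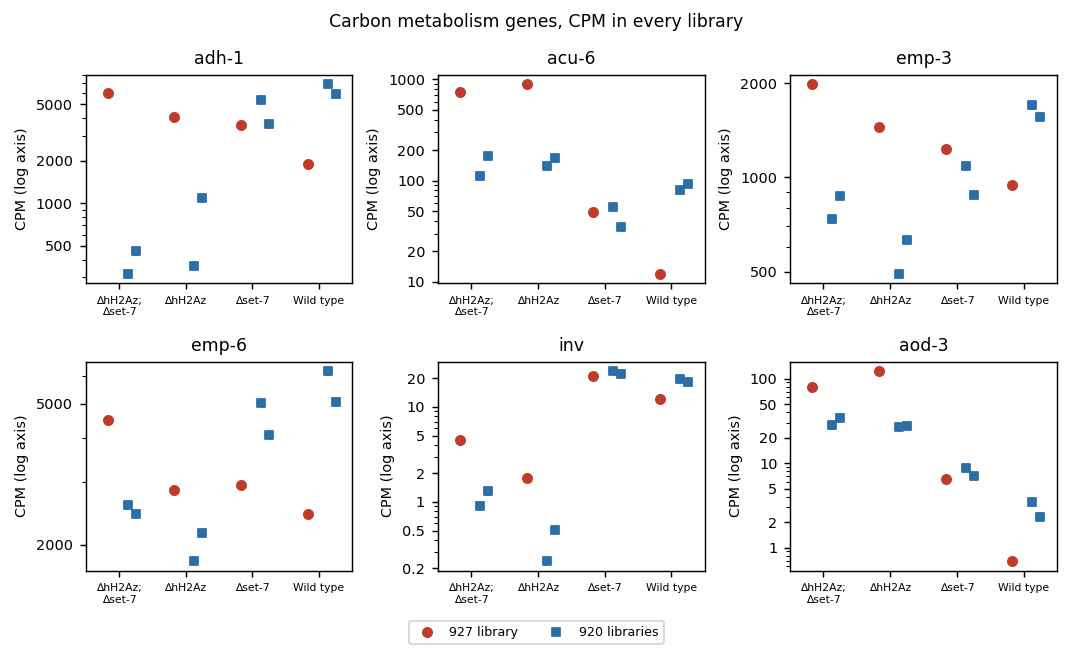
CPM on log axes in every library for carbon metabolism genes, with the tag-927 library (red circle) left of the tag-920 libraries (blue squares) in each strain. adh-1, acu-6, emp-3 and emp-6 had the tag-927 library above both tag-920 libraries in the strains without hH2Az and below both in the wild type.

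The genes that differed most by hH2Az status were mostly known by locus number. NCU07853, which overlaps another gene, had 1640 and 1440 CPM in the tag-927 libraries of ∆hH2Az;∆set-7 and ∆hH2Az, against 41.8 and 70.9 CPM and 140 and 347 CPM in their tag-920 libraries. Its tag-927 levels were 452 and 205 CPM in ∆set-7 and the wild type, against 546 to 630 CPM in the tag-920 libraries. Its difference was 4.75 (SE 0.819, edgeR adjusted p = 0.0212). NCU03208 had 13.4 and 18.4 CPM in the tag-927 libraries of the hH2Az-deleted strains and 0.813 to 2.01 CPM in their tag-920 libraries, with a difference of 4.33 (SE 0.569, edgeR adjusted p = 0.0108). NCU08412 and NCU09886 differed by 4.46 and 4.33. In the other direction, app, which encodes an abundant protein of perithecia and overlaps another gene, had 0.417 and 0.048 CPM in the tag-927 libraries of ∆hH2Az;∆set-7 and ∆hH2Az, against 1.09 to 8.17 CPM in their tag-920 libraries. In ∆set-7 and the wild type it had 50.5 and 31.1 CPM in the tag-927 libraries, against 7.93 to 19.1 CPM (difference -5.34, SE 1.16, edgeR adjusted p = 0.0394). With single libraries left out, the difference of app moved between -8.15 and -3.19 and lost its call in 9 of 12 cases. NCU09209 had 7.43 and 13.5 CPM in the tag-927 libraries of ∆hH2Az;∆set-7 and ∆hH2Az, against 11.2 to 16.9 CPM, and 300 and 481 CPM in those of ∆set-7 and the wild type, against 47.2 to 120 CPM. It rose where hH2Az is kept (log2 fold change 2.17, SE 0.297, edgeR adjusted p = 0.0344), a call lost without 8 of the 12 libraries. gh76-5 rose where hH2Az is kept and fell where it is deleted, by 1.76 and -1.14 on the log2 scale. These calls were lost without 9 and 4 of the 12 libraries. mig-12 fell where hH2Az is deleted (log2 fold change -1.91, SE 0.347, edgeR adjusted p = 0.0129). When single libraries were left out, the difference by hH2Az status lost its call in 6 of 12 cases for NCU07853 (3.46 to 5.75), 2 for NCU03208 (3.89 to 4.78), 3 for NCU08412 (3.48 to 5.32) and 7 for NCU09886 (3.23 to 5.22). It was lost in 5 cases for NCU09209, 3 for mig-12 (-3.73 to -2.25) and 2 for gh76-5 (-3.28 to -2.53).

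Members of other groups passed as well. In the nitrogen and amino acid use list of 20 genes, gln-2 and nit-6 rose where hH2Az is deleted, and gln-2 alone differed by status. Over all genes tested, 6.55% rose where hH2Az is deleted and 2.63% differed upward by status. gln-2, which encodes glutamine synthetase, had 1790 and 2070 CPM in the tag-927 libraries of ∆hH2Az;∆set-7 and ∆hH2Az, against 987 to 1050 CPM in their tag-920 libraries. In ∆set-7 and the wild type it had 741 and 738 CPM in the tag-927 libraries, against 1100 to 1210 CPM. The difference was 1.53 (SE 0.198, edgeR adjusted p = 0.0107), lost without 2 of the 12 libraries. The groups did not overlap in any strain, a pattern in these directions that 3.55% of all genes tested showed. cat-1, a catalase gene that marks conidia and responds to oxidative stress, had 532 and 616 CPM in the tag-927 libraries of ∆hH2Az;∆set-7 and ∆hH2Az, against 205 to 232 CPM. It rose where hH2Az is deleted (log2 fold change 1.42, SE 0.251, edgeR adjusted p = 0.0113), a call kept without any single library, and the difference by status did not pass. The cell wall protein genes ncw-3, ncw-4 and acw-3 fell where hH2Az is kept, 3 of 28 genes of their list, against 0.597% of all genes tested. ncw-3 had 498 and 476 CPM in the tag-927 libraries of ∆set-7 and the wild type, against 3290 and 2580 CPM and 4570 and 2840 CPM in their tag-920 libraries (log2 fold change -2.76, SE 0.505, edgeR adjusted p = 0.0419). ncw-3 and ncw-4 each lost this call without 9 of the 12 libraries, and acw-3 without 10. crf1-1, listed in the labels as swr-1, encodes the catalytic subunit of the complex that exchanges H2A for H2A.Z. It rose where hH2Az is kept, with 36.5 and 50.5 CPM in the tag-927 libraries of ∆set-7 and the wild type, against 19 to 26.6 CPM in their tag-920 libraries (log2 fold change 0.94, SE 0.18, edgeR adjusted p = 0.042), and lost this call without 9 of the 12 libraries. No histone gene passed in any of the 5 tests.

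The tag effect differed by set-7 status for 324 genes, with 221 higher (2.64%) and 103 lower (1.23%) where set-7 is deleted. The largest differences came from genes that were high in the tag-920 libraries of ∆hH2Az and low in its tag-927 library. NCU16445, which overlaps another gene, had 5.76 and 0.885 CPM in the tag-927 libraries of ∆hH2Az;∆set-7 and ∆set-7, against 0.303 and 0.529 CPM and 0.759 and 0.547 CPM in their tag-920 libraries. In ∆hH2Az it had 0.528 CPM in the tag-927 library, against 37.5 and 45.9 CPM, and in the wild type 0.231 CPM, against 0.337 and 1 CPM. The difference was 8.33 (SE 1.41, edgeR adjusted p = 0.0274). It moved between 1.96 and 10.03 when single libraries were left out, and lost its call in 9 of 12 cases. NCU00031 differed by 6.32 (SE 0.737, edgeR adjusted p = 0.0174), with 1.34 CPM in the tag-927 library of ∆hH2Az, against 73.2 and 95.1 CPM. gh7-4, which encodes a glycoside hydrolase of family 7, had 0.624 CPM in the tag-927 library of ∆hH2Az, against 33.2 and 29.2 CPM, and differed by 5.40. With single libraries left out, NCU00031 moved between 2.83 and 7.09 and lost its call in 4 of 12 cases, and gh7-4 moved between 1.96 and 6.48 and lost it in 7. gh7-4 was 1 of 6 plant cell wall hydrolase genes of 73 that differed upward, against 2.64% of all genes, and this list had 0 to 27 calls when single libraries were left out. The regulators clr-1 and cre-1 differed upward too, by 1.80 and 1.09, and each lost its call without 5 of the 12 libraries. clr-1 had 72.5 CPM in the tag-927 library of ∆hH2Az;∆set-7, against 23.7 and 26.7 CPM, and 32.7 CPM in that of ∆hH2Az, against 59.3 and 57.7 CPM.

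Of 20 genes of nitrogen and amino acid use, 3 differed downward by set-7 status (am, gln-1 and spe-1), against 1.23% of all genes, and the list had 0 to 10 calls when single libraries were left out. am, which encodes glutamate dehydrogenase, had 444 and 2300 CPM in the tag-927 libraries of ∆hH2Az;∆set-7 and ∆set-7, against 1910 and 1940 CPM and 2460 and 3090 CPM in their tag-920 libraries. In ∆hH2Az it had 883 CPM in the tag-927 library, against 256 and 329 CPM, and in the wild type 3430 CPM, against 1790 and 2340 CPM. The groups did not overlap in any strain, though within each single strain this held for most genes tested. The difference was -2.36 (SE 0.534, edgeR adjusted p = 0.0455), lost without 9 of the 12 libraries. The number of calls by set-7 status was 716 without the tag-927 library of ∆hH2Az;∆set-7, 712 without that of ∆hH2Az, and above 2000 without that of ∆set-7 or the wild type (2131 and 2095). Without single tag-920 libraries it was between 0 and 390. No gene was called both in the common shift and by set-7 status, and 9 were called by both hH2Az and set-7 status.

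Genes within 200 kb of a chromosome end made up 7.43% of the genes tested, 11.5% of the 61 common shifts, 8.6% of the 779 calls where hH2Az is deleted, 9.27% of the 151 where it is kept and 7.22% of the 360 that differed by hH2Az status. The called genes had a median level of 50.3 CPM for the common shifts and 47.8 CPM for those that differed by hH2Az status, against 27.2 CPM over all genes tested. Where hH2Az is deleted, 169 of 779 called genes (21.7%) had an adjacent gene called in the same direction, and among the 360 it was 47 (13.1%). Of all genes tested, 6.55% were called higher and 2.76% lower where hH2Az is deleted, and 2.63% and 1.67% by hH2Az status. A gene can have a neighbour on either side, and no share was computed for genes drawn at random. These values therefore only describe the calls and show no clustering. Such pairs included emp-3 with NCU00628, separated by 562 bp, and gln-2 with NCU04855, separated by 2667 bp, all higher where hH2Az is deleted relative to where it is kept.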

How the data were processed

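The authors deposited 1 table of read counts per gene for 12 libraries. Per the file header it was made with featureCounts 1.6.2 over exons with no strand option, so reads of overlapping or antisense genes cannot be told apart. The aligner and genome build are not given in the sources used here, and positions are those of the deposited table. Names came from a RefSeq table that matched 10397 of 10398 genes.

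Counts were scaled by TMM, and 8372 genes passed edgeR's filter by strain. edgeR's quasi-likelihood test (4.0.16, in R 4.3.3) was fitted over all 12 libraries with strain as a block, and a tag term in common, per hH2Az status or per set-7 status. P-values were adjusted by Benjamini-Hochberg over all genes tested, at 0.05. Shifts within a strain are log2 CPM differences with a prior count of 2, untested. The scripts were tested on simulated data. DESeq2 1.42.0, limma 3.58.1, other scalings, filters and blocks, and leaving out each library were alternatives; those for shifts within a strain were added after seeing the data.

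Named were the 10 largest common rises and falls in log2 fold change among genes that passed, at 5 CPM or more, with the tag-927 library on the same side in all 4 strains. The 5 largest by hH2Az status and the 2 largest by set-7 status in each direction were named likewise. Up to 4 members of each list with the smallest adjusted p in the common shift were also picked. Not all of these list members are described in the text. Members and lists were chosen with earlier results of these data known.

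Lists whose results are not described elsewhere were these, as calls where hH2Az is deleted and by hH2Az status. Of 12 oxidative stress genes, 2 rose where hH2Az is deleted (cat-1, described above, and nor-1) and none differed by status. Of 14 sulfur and phosphorus genes, 2 rose and 1 differed upward. Of 13 sexual development genes, 1 fell and 1 differed downward. Of 15 conidial genes, 2 rose (cat-1 and acu-6) and 1 differed upward (acu-6). Both are also members of other lists and were counted there. Of 12 heterochromatin genes, none changed and 1 differed downward. Of 6 sterol and fatty acid genes 1 fell, and of 7 heterokaryon incompatibility genes 1 rose and 1 fell, and none of these differed by status. Over all genes tested, 6.55% rose and 2.76% fell where hH2Az is deleted. By hH2Az status 2.63% differed upward and 1.67% downward.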

Additional observations from a re-analysis of the deposited data

Results flagged for a closer look

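In 2 of 34 sets of 4 strain shifts checked, 1 strain lay far from the other 3, and chance alone flags about 1 in 20 such groups. The log2 shift of ccg-13 was -0.99 in ∆hH2Az;∆set-7, against -3.19 to -2.91 in the other strains. That of NCU10031, 0.7 kb from an end of chromosome I, was -4.13 in ∆hH2Az, against -1.85 to -1.68 in the other strains.

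The tag effect differed by hH2Az status, in the test of the difference itself with edgeR, for 27 of the genes described. On the log2 scale, deleted minus kept, it was 4.75 for NCU07853, 4.46 for NCU08412, 4.33 for NCU09886, 4.33 for NCU03208, 4.26 for adh-1, 3.57 for acu-6, 1.53 for gln-2, 1.33 for ser-7, 1.74 for pho-2, 2.46 for inv, 1.53 for emp-3, 1.59 for emp-6, 1.87 for ncw-6 and 2.67 for aod-3. It was -1.23 for NCU06328, -5.34 for app, -2.92 for mig-12, -2.89 for gh76-5, -2.62 for vvd, -2.59 for NCU09209, -1.93 for al-2, -1.48 for frq, -1.12 for bli-3, -1.32 for phr, -1.57 for hsp80, -1.37 for gh31-2 and -1.0 for dmm-1.

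The tag effect differed by set-7 status for 23 of the genes described. Deleted minus carried, it was 8.33 for NCU16445, 6.32 for NCU00031, 1.80 for clr-1, 1.09 for cre-1, 1.78 for gh35-1, 2.25 for gh61-1, 1.57 for gh3-1, 5.40 for gh7-4, 1.69 for gh13-3, 1.58 for gh13-2 and 1.38 for acw-8. It was -2.52 for NCU04787, -2.36 for am, -1.40 for frh, -1.69 for cat-4, -1.46 for spe-1, -1.60 for gln-1, -1.03 for lys-3, -0.90 for ilv-6, -1.03 for lys-6, -1.21 for nuo11.5, -1.40 for cya-5 and -1.44 for chol-1. These genes were picked among those that passed, so the values describe them and add no test.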

How the results depend on the processing

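Among 153 gene values that passed, none changed sign under any setting, including 1836 values with 1 library left out, of which 869 lost the call. The 153 were picked because they passed in these same libraries, so a change of sign was unlikely from the start and its absence tests nothing. The counts of calls were far less stable. Those of the common shift (61) became 95 with upper-quartile scaling, 182 with a mean of at least 5 CPM, 756 with the DESeq2 Wald test, 101 with limma-voom, 0 without the strain block, 563 with tag terms per hH2Az status averaged, and 1 to 1165 with 1 library left out. Where hH2Az is kept (151) they became 829 with the Wald test, 393 with only the 6 libraries of those strains, and 0 to 1165 with 1 left out. Where it is deleted (779) they became 1454, 497 and 242 to 1736 in the same settings. By hH2Az status (360) the Wald test gave 1049 and leaving out 1 library 4 to 1872. By set-7 status (324) they gave 995 and 0 to 2131, and limma-voom gave 516. With the replicate block, the calls were 11 for the common shift, 0 where hH2Az is kept, 279 where it is deleted, 16 by hH2Az status and 0 by set-7 status, and 112 of the 153 gene values lost their call. The replicate numbers share only a number: of 18 same-numbered pairs, with correlations of -0.35 to 0.431, 7 exceeded 0.1, and 4 of 12 libraries correlated best with their own number. The genes past 2-fold within a strain numbered 1792 to 1839 in ∆hH2Az;∆set-7, 1512 to 1712 in ∆hH2Az, 886 to 1258 in ∆set-7 and 888 to 1182 in the wild type with 1 of the tag-920 libraries left out. The cause of these changes was not tested. A lone tag-927 library in a strain is assumed to vary like the others.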
